A study of Homo sapiens with 4 samples.

Results

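The zinc finger genes of human chromosome 19 were followed in day 7 cultures of H9, a human embryonic stem cell line, with and without the genotype label TFAP2A knockout. Members were all rows of the deposited gene table on chromosome 19 whose symbol is ZNF, a number and at most 1 letter. There were 252 of 25690 rows. All 4 libraries, 2 wild-type (WT) and 2 labelled TFAP2A knockout, came from polyA-selected RNA of cells labelled non-neural ectoderm, the early ectoderm outside the neural plate. TFAP2A encodes the transcription factor AP-2 alpha. In the titles of the 2 knockout samples TFAP2C, a related gene, stands in its place. The labels used here name no clone, guide, growth protocol or separate cultures, so that p-values reflect only how far these libraries scatter, possibly for technical reasons.

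Most chromosome 19 ZNF genes encode proteins with a KRAB domain and a row of zinc fingers that read DNA, many of them transposable elements. The KRAB domain recruits TRIM28 (KAP1), which brings the histone methyltransferase SETDB1 and heterochromatin proteins and so silences the bound site. The genes arose by repeated local duplication and lie in clusters of neighbours with similar sequence, and ZNF promoters and gene ends are themselves known sites of silencing marks.

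Levels are CPM, the estimated count of a gene scaled to library size after TMM normalization. Libraries held 17838204 to 21797851 counts, and a gene with 0 counts could still lie at up to 3 counts, or 0.137 to 0.170 CPM. Differences were tested in edgeR (quasi-likelihood, Benjamini-Hochberg over 15643 genes), and a gene passed at an adjusted p under 0.05. TFAP2A transcript was at 171 and 198 CPM in WT against 133 and 121 CPM, lower but present in the libraries labelled knockout. TFAP2C was at 27.5 and 30.6 CPM against 8.89 and 5.77. Of 12 surface ectoderm markers, all 12 were tested and 8 fell, TFAP2A and TFAP2C among them, with none at 0 (summed CPM 3196 and 3481 in WT, 2426 and 2341 in the other libraries). Of 7 amnion and trophoblast markers, 6 were tested and all 6 fell (2058 and 2206 against 221 and 175), with CGA and CGB5 at 0 in both libraries labelled knockout. Of 7 neural ectoderm markers, 4 were tested and all 4 rose (7.97 and 7.88 against 21.7 and 17.9). The pluripotency markers summed to 656 and 715 CPM against 561 and 474, with 1 higher and 1 lower among 5 tested. Most of that sum was LIN28A, which fell from 539 and 591 to 397 and 343 CPM. SOX2 rose from 11.7 and 10.9 to 51.8 and 31.4 CPM, and POU5F1, DPPA4 and ZFP42 did not pass. The mesenchyme markers summed to 9947 and 10296 against 7929 and 9313, with 1 higher and 3 lower among 6. Of the 5 endothelial markers 2 of 3 tested fell, and PECAM1 had 0 counts in all 4 libraries (43.6 and 41.1 against 17.4 and 16.6 CPM in sum). The part of such differences in the ZNF results was not tested, and fewer cells of a type and less RNA per cell cannot be told apart in bulk RNA.

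Promoters are shown first for the genes on which the results turn, because several of the largest differences were in genes at under 1 CPM in WT and expressed in the libraries labelled knockout. ZNF582, ZNF667 and ZNF835 are such genes from one stretch near the right end of the chromosome. ZNF470 lies within that stretch and was expressed in both genotypes, and ZNF132 showed the largest fall. Each sequence is the RefSeq promoter in GRCh38.p14, 250 bases before to 50 after the annotated start, 5′ to 3′ on the gene's strand. Capitals mark CpG dinucleotides, the sites of DNA methylation.
ZNF582: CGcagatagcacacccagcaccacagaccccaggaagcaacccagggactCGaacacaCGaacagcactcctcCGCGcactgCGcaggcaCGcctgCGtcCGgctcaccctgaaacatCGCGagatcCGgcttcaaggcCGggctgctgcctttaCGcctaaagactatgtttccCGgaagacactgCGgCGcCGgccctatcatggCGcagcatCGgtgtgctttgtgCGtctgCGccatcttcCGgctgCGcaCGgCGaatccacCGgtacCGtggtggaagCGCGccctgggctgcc
ZNF667: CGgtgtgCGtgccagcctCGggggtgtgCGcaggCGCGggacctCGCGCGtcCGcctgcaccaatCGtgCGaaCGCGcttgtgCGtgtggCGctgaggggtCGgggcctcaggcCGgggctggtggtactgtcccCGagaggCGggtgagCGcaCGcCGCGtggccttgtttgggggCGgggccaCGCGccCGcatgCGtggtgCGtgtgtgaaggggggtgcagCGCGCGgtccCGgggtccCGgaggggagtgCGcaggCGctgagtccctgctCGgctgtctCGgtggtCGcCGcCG
ZNF835: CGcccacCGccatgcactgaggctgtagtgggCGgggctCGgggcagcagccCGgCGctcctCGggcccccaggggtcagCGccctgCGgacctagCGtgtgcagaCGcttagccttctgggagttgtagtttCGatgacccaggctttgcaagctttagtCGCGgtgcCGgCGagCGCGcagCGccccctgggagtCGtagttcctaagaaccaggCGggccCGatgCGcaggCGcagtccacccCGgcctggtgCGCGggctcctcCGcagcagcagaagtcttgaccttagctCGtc
ZNF470: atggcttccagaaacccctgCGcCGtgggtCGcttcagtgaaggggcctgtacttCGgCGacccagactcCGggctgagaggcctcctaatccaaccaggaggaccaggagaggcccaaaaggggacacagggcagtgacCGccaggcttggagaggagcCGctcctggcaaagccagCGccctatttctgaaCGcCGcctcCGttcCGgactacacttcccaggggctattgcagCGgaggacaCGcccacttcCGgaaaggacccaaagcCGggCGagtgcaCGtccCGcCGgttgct
ZNF132: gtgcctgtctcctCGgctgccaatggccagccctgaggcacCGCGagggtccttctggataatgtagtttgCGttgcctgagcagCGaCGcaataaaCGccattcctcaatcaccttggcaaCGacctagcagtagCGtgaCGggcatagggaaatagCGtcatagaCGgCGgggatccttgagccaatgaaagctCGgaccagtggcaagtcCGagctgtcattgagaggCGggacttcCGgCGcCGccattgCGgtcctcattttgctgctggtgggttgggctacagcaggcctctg

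In GRCh38 these promoters are chr19:56393485-56393784 (ZNF582, minus strand), chr19:56477296-56477595 (ZNF667, minus), chr19:56671708-56672007 (ZNF835, minus), chr19:56567218-56567517 (ZNF470, plus) and chr19:58440104-58440403 (ZNF132, minus). The ZNF667 promoter held 42 CpG dinucleotides, that of ZNF582 30, ZNF835 29, ZNF470 21 and ZNF132 20. The 213 members with a promoter in the RefSeq table had a median of 20, with quartiles of 14 and 26, against a median of 14 over all 27305 promoters. The promoters of ZNF582, ZNF667 and ZNF835 were thus above the upper quartile of the members, but so was that of ZNF71, with 31. ZNF71 is a neighbour expressed in both genotypes and was called higher by 1.27-fold. Of the other members called higher by 2-fold or more, ZNF135 had 32, but ZNF583 and ZNF229 had 23 each, ZNF285 17 and ZNF772 16. ZNF471 and ZNF542P, also among them, had no RefSeq promoter here. The palindrome bound by AP-2 factors was searched as GCCNNNGGC, which reads the same on both strands. It occurred in 49 of 213 member promoters (23.0%) and in 6291 of all promoters (23.0%). Among members it occurred in 15 of 37 that were called higher, 3 of 16 called lower and 29 of 149 not called, with the remaining 2 among members not tested. Median GC content in these 3 sets was 64%, 59% and 60%. ZNF582, ZNF667 and ZNF132 each held 1 match, and ZNF835 and ZNF470 held 0.

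Among the chromosome 19 ZNF genes that changed, more were higher than lower, and the share called was below that of all genes. Of the 252 members, 234 had enough counts to be tested. In the libraries labelled knockout 42 were higher, 21 were lower and 171 did not pass, so 26.9% were called, beside 44.2% of all genes tested. The split was 17.9% higher and 8.97% lower among members, against 21.9% higher and 22.3% lower among all genes. The median log2 fold change of the members was 0.05, with quartiles of -0.10 and 0.26, and that of all genes was 0.00, with quartiles of -0.26 and 0.24. Other chromosome 19 genes had 141 higher (16.5%) and 174 lower (20.3%) of 857, 36.8% called. ZNF genes on other chromosomes had 53 higher (21.3%) and 24 lower (9.64%) of 249, 30.9% called, so that they too had more genes higher than lower. The differences between these groups were not tested. Members were also expressed at lower levels than other genes, with a median of 10.2 CPM against 24.1 over all genes tested and a median standard error of the log2 fold change of 0.14 against 0.10. The count of changes of at least 2-fold was 10 higher and 2 lower among members, 5.13% of those tested, beside 11.3% of all genes (4.49% higher and 6.77% lower). Genotypes did not overlap for 135 members, 57.7% of those tested, where 73.1% of all genes did not overlap. The members summed to 3324 and 3397 CPM in WT and to 3590 and 3580 CPM in the libraries labelled knockout. With DESeq2 only 23 members were higher and 8 lower, and without WT replicate 1 26 were higher. Without WT replicate 2 13 were lower, 1 of them by 2-fold or more.

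**Figure D1:**
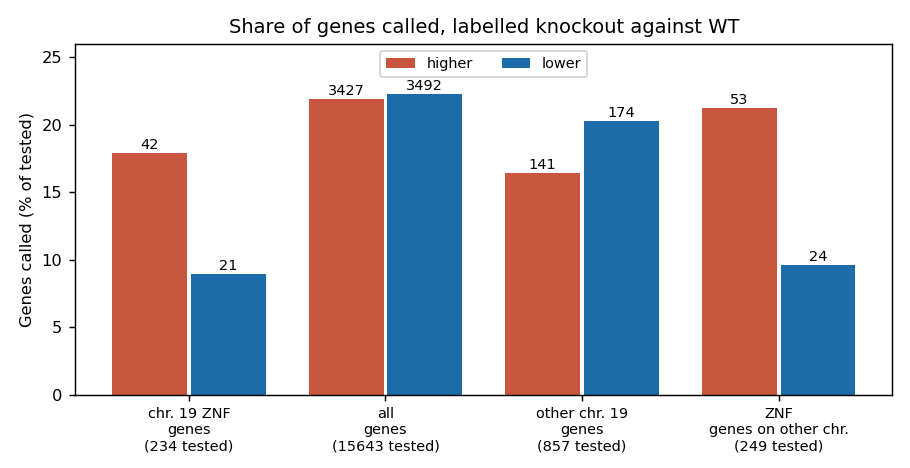
Percent of tested genes called higher or lower in the libraries labelled knockout (edgeR, adjusted p under 0.05), with the number of genes above each bar. The chromosome 19 ZNF genes (42 higher, 21 lower of 234) and the ZNF genes of other chromosomes (53 and 24 of 249) both had more genes higher than lower, while all genes had 3427 and 3492.

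Members fell into 16 clusters along the chromosome, where a cluster ends at a gap of more than 1000000 bp between starts, and 8 clusters held at least 5 tested members. Some of these clusters had calls in one direction only and others in both, but differences between clusters were not tested. Neighbouring members resembled each other: over 219 adjacent tested pairs within clusters the log2 fold changes had a Pearson r of 0.30 and a Spearman rho of 0.38. These describe genes of the same 4 libraries, which are not independent, and some neighbours share sequence. In 20 pairs both genes passed, 18 of them in the same direction and 2 in opposite directions. Of all single genes 44.2% were called, which gives no base for how often called neighbours share a direction. With 42 members called higher and 21 lower, many called pairs would share a direction in any order. Adjacent pairs of other genes were not compared, so the resemblance is not shown to be particular to ZNF genes. Positions below are those of the deposited table and are hg19.

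**Figure D2:**
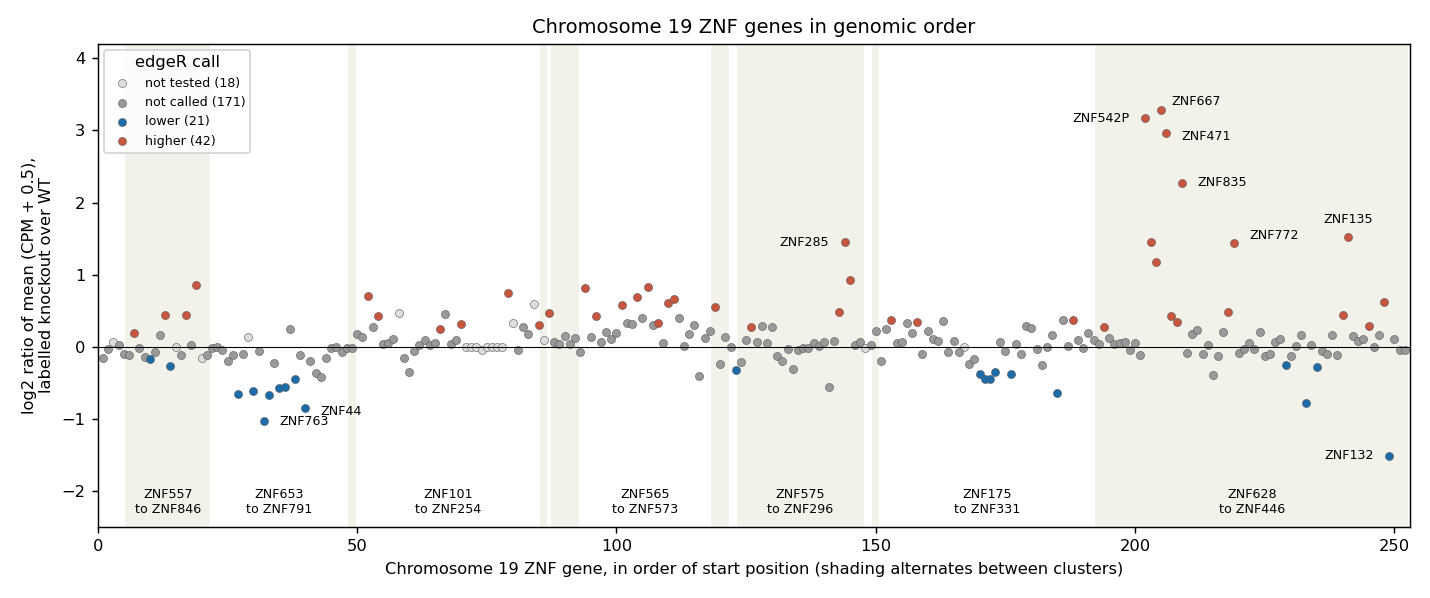
Log2 ratio of the mean CPM plus 0.5, libraries labelled knockout over WT, for all 252 members in order of start position, coloured by the edgeR call, with shading that alternates between clusters. The cluster from ZNF653 to ZNF791 holds 8 genes called lower, that from ZNF565 to ZNF573 holds 8 called higher, and the 4 largest plotted ratios (ZNF667, ZNF542P, ZNF471 and ZNF835) lie in the cluster from ZNF628 to ZNF446.

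Of the 10 rises of 2-fold or more, 5 formed a run of neighbours from ZNF542P to ZNF471, between 56879490 and 57040269, in the 60-member cluster that ends near the telomere. All 5 ZNF genes in order there, ZNF542P, ZNF582, ZNF583, ZNF667 and ZNF471, rose, but the ends of the run were set by these rises. Of all genes 4.49% were called higher by 2-fold or more. ZNF542P (56879490 to 56891196, plus strand), a transcribed pseudogene in RefSeq, was at 2.07 and 2.04 CPM in WT and at 22.6 and 22.4 CPM in the libraries labelled knockout. This is 10.9-fold higher, from 2.06 ± 0.0196 to 22.5 ± 0.138 CPM (SD, n = 2), and on the log2 scale 3.45 (SE 0.15, adjusted p = 2.16e-10 in edgeR). ZNF582 (56894648 to 56904889, minus), known for promoter methylation in carcinomas, was at 0.615 and 0.794 CPM in WT and 2.64 and 2.93 in the others. Its log2 fold change was 1.98 (SE 0.30, adjusted p = 8.72e-05 in edgeR). ZNF583 (56915694 to 56936400, plus) was at 2.12 and 2.75 against 6.32 and 5.91 CPM, 2.51-fold higher. In all 3 genes both WT libraries lay below both others.

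ZNF667 (56950693 to 56988770, minus) was close to silent in WT, at 0.252 and 0.425 CPM, and reached 8.45 and 6.85 CPM in the libraries labelled knockout. The means were 0.338 ± 0.123 and 7.65 ± 1.13 CPM (SD, n = 2), a 22.6-fold difference (log2 fold change 4.47, SE 0.30, adjusted p = 2.49e-08 in edgeR). ZNF471 (57019212 to 57040269, plus), another gene known for promoter methylation in tumours, had 0 and 0.5 counts in WT. In the libraries labelled knockout it had 72.5 counts in each, 3.71 and 3.32 CPM. With its WT total taken as 1 count the ratio was 125, with a 95% exact (Clopper-Pearson) counting interval of 22.0 to 4953, and the adjusted p was 2.35e-07 in edgeR. Intervals and limits cover counting error only. The calls of all 5 genes held in each of the 9 other fits, with a highest adjusted p of 0.00299 for ZNF582 (edgeR and DESeq2).

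The run was not limited to genes named ZNF. ZNF582-AS1, a non-coding gene that starts 156 bp from ZNF582 on the other strand, was at 0.308 and 0.0284 CPM in WT and at 1.25 and 1.10 in the others (log2 fold change 2.74, SE 0.66). ZNF667-AS1 starts 473 bp from ZNF667 and was at 0.308 and 0.0284 against 5.76 and 5.68 CPM (log2 fold change 5.03, SE 0.47). Neither non-coding gene overlaps its ZNF partner in the deposited positions, but whether counting used strand is unknown here. ZFP28, a KRAB zinc finger gene just after ZNF471, rose from 2.26 and 1.28 to 7.61 and 7.01 CPM, and ZSCAN5A, just before ZNF542P, rose from 3.36 and 2.50 to 5.02 and 6.19. Every gene tested from ZSCAN5A to ZFP28 was thus called higher, but the ends of this stretch were chosen with the calls in view. ZNF470 and ZNF71, which follow, were also called higher, by less. Of all genes 21.9% were called higher.

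On both sides the difference became small within a few genes. ZNF470 (57078890 to 57094262, plus), shown above with its promoter, was at 9.53 and 8.82 CPM in WT and 13.9 and 11.02 in the others. Its log2 fold change was 0.44 (SE 0.14, adjusted p = 0.0248 in edgeR), a call lost with DESeq2 and without knockout replicate 1, WT replicate 1 or WT replicate 2 (highest adjusted p = 0.220). ZNF71 rose from 27.7 and 27.02 to 33.1 and 36.6 CPM, 1.27-fold. SMIM17, the next gene, was at 1.40 and 1.02 against 1.28 and 1.33 CPM and did not pass. ZNF444, on the other side, was at 51.9 and 55.9 against 47.9 and 51.2 CPM and did not pass. The imprinted gene PEG3, farther along, had 0.0559 and 0.170 CPM in WT and 0 counts in both other libraries, too few to be tested.

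**Figure D3:**
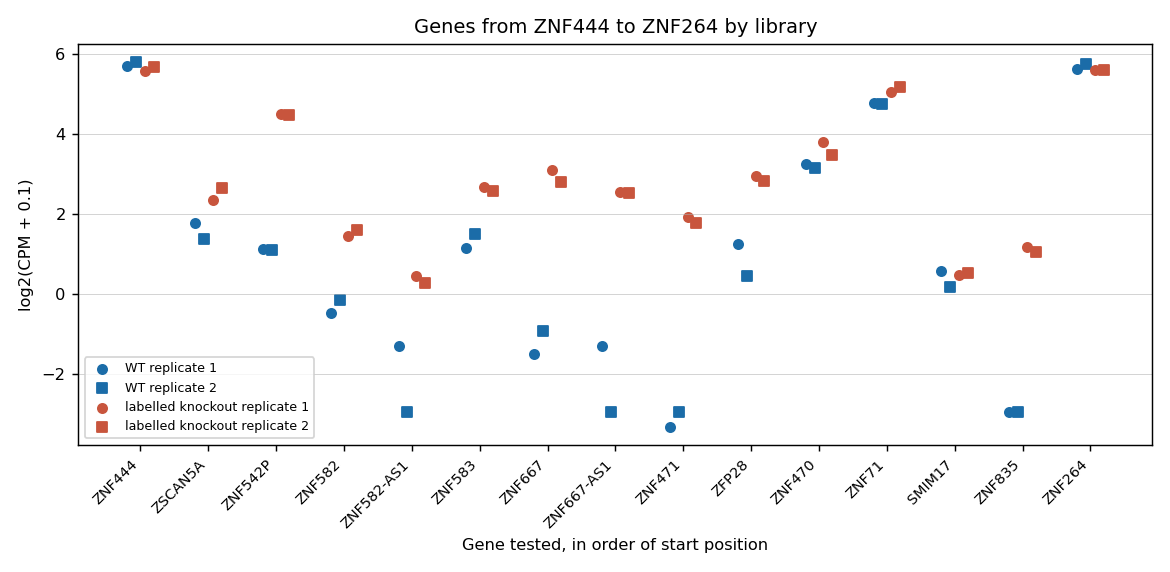
Log2 of CPM plus 0.1 in each of the 4 libraries for the tested genes from ZNF444 to ZNF264 in order of start position, with the neighbours ZSCAN5A, ZNF582-AS1, ZNF667-AS1, ZFP28 and SMIM17 among the members. WT libraries (blue) lie below the libraries labelled knockout (red) from ZSCAN5A to ZNF71 and again at ZNF835, while ZNF444, SMIM17 and ZNF264 overlap or lie close together.

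ZNF835 (57174020 to 57183123, minus) was the one member that changed by at least 4-fold alone. Alone means a log2 fold change under 1 in the nearest tested member on each side. ZNF542P, ZNF667, ZNF471 and ZNF229 also changed by at least 4-fold, but not alone. Of all genes 3.94% changed by at least 4-fold in either direction, whatever their neighbours did, and the share that changed alone was not computed. ZNF835 had 0.5 counts in each WT library. In the libraries labelled knockout it had 42 and 43 counts, 2.15 and 1.97 CPM. The ratio was 73.0, with a 95% exact counting interval of 12.8 to 2918 (adjusted p = 3.11e-06 in edgeR), and the call held in all 9 other fits. Its neighbours among the members are ZNF71, above, and ZNF264, which was at 49.7 and 54.3 against 48.9 and 49.2 CPM and did not pass. ZNF471 and ZNF835 were the 2 members with at most 3 counts in one genotype and at least 1 CPM in both libraries of the other. Of all 25690 rows, 15 met this in WT, which is 0.0584%. No member was silent in the libraries labelled knockout by this rule, where 23 rows (0.0895%) were.

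With a change of 2-fold or more in place of 4-fold, a looser limit chosen after the values were seen, 5 members met the rule of neighbours under a log2 fold change of 1: ZNF835, ZNF772, ZNF135, ZNF132 and ZNF763. Each of the 5 still had a neighbouring member that passed with a smaller change. ZNF772 (57980954 to 57988938, minus) was at 7.94 and 8.82 CPM in WT and at 21.8 and 25.5 CPM in the others, 2.82-fold higher. ZNF135 (58570607 to 58581110, plus) was at 6.51 and 5.87 against 18.4 and 18.95 CPM, 3.02-fold higher (log2 fold change 1.59, SE 0.13). ZNF132 (58944181 to 58951589, minus), a gene known to be methylated in prostate cancer, went the other way. It was at 7.47 and 7.26 CPM in WT but at 1.997 and 2.52 in the other genotype. The means were 7.36 ± 0.146 and 2.26 ± 0.37 CPM (SD, n = 2), 3.26-fold lower, or -1.70 in log2 with an SE of 0.19 (adjusted p = 6.25e-06 in edgeR). Its neighbour ZNF584 moved in the opposite direction, from 8.44 and 8.11 to 11.5 and 14.3 CPM (log2 fold change 0.65, SE 0.14). ZNF132, ZNF772 and ZNF135 were called in all 9 other fits.

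The whole cluster from ZNF628 to ZNF446 (55987699 to 58992597), the genes above included, held 60 tested members, of which 15 were higher, 4 were lower and 41 did not pass. Beside this, 21.9% of all genes were called higher and 22.3% lower. The median log2 fold change of the cluster was 0.06. ZNF552 (58318450 to 58326281, minus) fell from 17.2 and 16.8 to 9.01 and 10.4 CPM, 1.75-fold. ZNF587, one of the most abundant members, fell from 84.6 and 83.0 to 70.8 and 67.6 CPM (adjusted p = 0.00199 in edgeR). Of the 50-base windows of their longest transcripts, 18.4% (ZNF552) and 20.2% (ZNF587) also occur in transcripts of genes elsewhere, so some of their reads could belong to relatives. ZNF274, which binds the ends of other ZNF genes together with SETDB1, lies in this cluster. It was at 21.2 and 18.9 against 20.8 and 21.8 CPM and did not pass.

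In the cluster from ZNF653 to ZNF791 (11594242 to 12740676) nearly all tested members had a fold change below 0, some of them close to 0. By edgeR 8 of the 26 tested members fell and 0 rose, beside 22.3% of all genes called lower; 0 were higher also at an unadjusted p under 0.05 and by DESeq2. The fold change was below 0 in 25 of 26, beside 7789 of all 15643 genes tested, with a median log2 fold change of -0.20. Of the 26, 18 did not pass, among them ZNF564 at -0.004 and ZNF627 at -0.008. ZNF763 (12075869 to 12091198, plus) had the largest fall there, from 4.92 and 6.41 to 2.38 and 2.64 CPM, 2.26-fold (log2 fold change -1.17, SE 0.21, adjusted p = 0.000388 in edgeR). ZNF44 (12382625 to 12405714, minus) fell from 11.7 and 12.6 to 6.94 and 6.10 CPM, 1.86-fold. ZNF433 (12125532 to 12146525, minus) fell from 11.2 and 10.9 to 7.22 and 6.26 CPM. These 3 were called in all 9 other fits.

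Each of the other 5 falls of this cluster was lost in at least 2 of the 9 other fits. ZNF491 was at 5.17 and 4.39 CPM in WT and at 3.02 and 2.66 in the others. ZNF844 was at 8.75 and 7.34 against 4.97 and 5.52 CPM, and ZNF788, a transcribed pseudogene in RefSeq, at 8.61 and 7.77 against 5.53 and 5.20. These 3 did not pass with DESeq2 or when WT replicate 1 was left out. ZNF69 was at 4.22 and 5.98 against 2.79 and 3.53 CPM, and its call was lost with DESeq2 and without knockout replicate 1 or WT replicate 2. ZNF625 was at 6.96 and 7.77 against 5.66 and 4.86 CPM and lost its call with DESeq2, with the replicate block and without knockout replicate 2 or WT replicate 2. A read-through gene row on the same strand, ZNF625-ZNF20, overlaps both ZNF625 and ZNF20. The count of falls in the cluster was 3 with DESeq2 and 5 without WT replicate 1. ZNF20 was the only tested member above 0, at 7.63 and 7.74 against 9.47 and 8.96 CPM, and did not pass. The 5 other genes tested within the cluster span had 0 higher and 1 lower.

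The cluster from ZNF565 to ZNF573 (36672962 to 38270230) lay the other way. By edgeR 8 of the 26 tested members rose and 0 fell (0 lower also at an unadjusted p under 0.05 and by DESeq2), beside 21.9% of all genes called higher. A fold change above 0 was seen in 24 of them (median log2 fold change 0.32), beside 7854 of all 15643 genes tested. The 14 other genes tested in the same span had 6 higher and 0 lower, with a median of 0.33. ZNF420 (37569382 to 37620651, plus) was at 4.89 and 6.04 CPM in WT and 11.1 and 9.07 in the others, 1.85-fold higher (log2 fold change 0.89, SE 0.17, adjusted p = 0.000636 in edgeR). ZNF146 (36705504 to 36729675, plus), which encodes a protein of zinc fingers with no KRAB domain, rose from 37.8 and 41.5 to 71.6 and 68.3 CPM. ZNF260 rose from 31.96 and 33.1 to 44.5 and 43.2 CPM, and ZNF850 from 9.09 and 7.31 to 13.5 and 11.6. ZNF569 rose from 3.94 and 3.97 to 6.63 and 6.39 CPM, a call lost with DESeq2. ZNF527 rose from 4.33 and 4.93 to 7.17 and 7.52 CPM, lost with DESeq2 and without WT replicate 1. ZNF829, at 1.65 and 1.76 against 2.46 and 3.62 CPM, lost its call with DESeq2 and without knockout replicate 2 (adjusted p = 0.231), WT replicate 1 or WT replicate 2. ZNF585B, at 11.1 and 10.2 against 13.7 and 13.1 CPM, lost its call in 6 of 9 other fits. With DESeq2 the cluster had 4 members higher.

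Genes with adjoining promoters did not always both pass. On the deposited positions 22 head-to-head pairs with at least 1 member started within 2000 bp of each other, and in 20 of them both genes were tested. Both were higher in 3 pairs, 1 gene alone passed in 5 and neither passed in 12. Of all single genes 44.2% were called, 21.9% higher. Head-to-head pairs of other genes were not compared, so these counts are not shown to be particular to such pairs. The 3 were ZNF582 with ZNF582-AS1, ZNF667 with ZNF667-AS1, and ZNF850 with the gene LOC728485 (log2 fold change 3.67). Where 1 gene alone passed, the partners ZNF568, ZNF570, LOC100128398 and DEDD2 changed in the same direction as that gene. Their log2 fold changes were 0.45, 0.45, 0.40 and -0.12. ZNF146 and ZNF565, in contrast, overlap at their starts by 482 bp. ZNF565 was at 3.998 CPM in both WT libraries and at 4.05 and 3.46 CPM in the others and did not pass, whereas ZNF146 rose.

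The cluster from ZNF101 to ZNF254 (19779597 to 24312769), beside the centromere, held 36 members, of which 25 were tested. By edgeR 6 rose and 0 fell (0 lower also at an unadjusted p under 0.05 and by DESeq2), beside 21.9% of all genes called higher and 22.3% lower. The median log2 fold change was 0.11, and 21 of 25 lay above 0, beside 7854 of all 15643 genes tested. ZNF730 (23299777 to 23330014, plus) rose from 3.998 and 5.16 to 8.30 and 7.65 CPM (log2 fold change 0.79, SE 0.17). ZNF506 rose from 5.56 and 6.78 to 9.99 and 10.7 CPM (log2 fold change 0.73, SE 0.15). These 2 held in all 9 other fits. ZNF93, known as a repressor of LINE-1 elements, was at 7.58 and 8.68 against 10.8 and 11.4 CPM (adjusted p = 0.0185 in edgeR), a call lost with DESeq2 and without knockout replicate 2 or WT replicate 1. ZNF43, ZNF254 and ZNF738 were the other 3 called, with log2 fold changes of 0.33, 0.31 and 0.24, each lost with DESeq2, without knockout replicate 1 and without WT replicate 1. ZNF254 was also lost without WT replicate 2, and ZNF738 with the replicate block. ZNF91, known as a repressor of SVA elements, was at 19.7 and 25.1 against 22.1 and 21.3 CPM and did not pass. The count of rises in the cluster was 2 with DESeq2, 3 without knockout replicate 1 and 2 without WT replicate 1, where 1 member was lower.

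A block of 8 consecutive members in the same cluster was silent in both genotypes. From ZNF208 to ZNF728 (22148897 to 23186010), ZNF208, ZNF257, ZNF676, ZNF98, ZNF492, ZNF99 and ZNF728 had 0 counts in all 4 libraries and ZNF729 had 0.5 counts in WT replicate 2. A count of 0 allows up to 0.137 to 0.170 CPM per library. The other rows within the span were silent too: LINC01233, GOLGA2P9, LOC100996349, LOC101929164 and LOC101929144 had 0 counts, and LOC101929124 had 1 in knockout replicate 1. Of all 25690 rows, 4531 had 0 counts in every library, against 8 of the 252 members. The flanking ZNF43 (24.5 and 30.2 CPM in WT, 35.0 and 33.6 in the others) and ZNF730 were expressed in every library. Shared sequence was high for ZNF98 (58.0% of windows) and ZNF492 (33.3%), but was between 2.90% and 8.96% for the other 6. ZNF560, in the cluster from ZNF557 to ZNF846, was the only other member at 0 in all libraries. Of the other 9 members not tested, ZNF724P had the most counts, 47.5 over the 4 libraries, and ZNF826P had 0 and 0.5 counts in WT against 2 and 7.

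In the cluster from ZNF175 to ZNF331 (52074531 to 54083523), 3 of 41 tested members rose and 6 fell, beside 21.9% of all genes called higher and 22.3% lower (median log2 fold change 0.05). ZNF701, ZNF137P, ZNF83 and ZNF611 are 4 consecutive members that fell. ZNF83 fell from 20.8 and 24.2 to 16.7 and 15.9 CPM (log2 fold change -0.47, SE 0.11), a call that held in all 9 other fits. ZNF701 was at 13.2 and 13.5 against 10.9 and 9.51 CPM, and ZNF611 at 13.5 and 15.5 against 11.4 and 11.2. Each of these 2 lost its call in 4 of 9 other fits, among them DESeq2, and without knockout replicate 2 or WT replicate 2. ZNF137P, a pseudogene at 4.53 and 4.34 against 3.15 and 3.07 CPM, lost its call in 8 of 9, each left-out library among them. The pseudogene ZNF818P was at 5.40 and 7.14 against 3.97 and 3.71 CPM and lost its call with DESeq2 and without knockout replicate 2 or WT replicate 2. ZNF468 completed the 6, with a log2 fold change of -0.40, lost in 3 of 9. The cluster had 1 member lower with DESeq2, or without either second replicate. It had 1 member higher with DESeq2 or without either first replicate.

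The cluster from ZNF575 to ZNF296 (44037340 to 45579688) held 24 tested members, of which 4 rose and 0 fell by edgeR, beside 21.9% of all genes called higher and 22.3% lower. At an unadjusted p under 0.05 1 was lower, and DESeq2 called 2 higher and 0 lower. ZNF285 (44889808 to 44905777, minus) was at 3.05 and 2.75 CPM in WT, against 9.35 and 8.20, 3.03-fold higher (log2 fold change 1.61, SE 0.18, adjusted p = 4.52e-06 in edgeR). The next member, ZNF229 (44930423 to 44952665, minus), had 0 and 4.5 counts in WT and 14.5 and 14 in the others. Its adjusted p was 0.0139 in edgeR, and the call was lost with DESeq2 and without knockout replicate 1, knockout replicate 2 or WT replicate 1. ZNF180, which follows, did not pass, with a log2 fold change of 0.02.

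In the cluster from ZNF557 to ZNF846 (7069471 to 9879410), 4 of 14 tested members rose and 2 fell (1 and 0 with DESeq2), beside 21.9% and 22.3% of all genes. ZNF562 (9759338 to 9785776, minus) rose from 24.9 and 27.7 to 50.5 and 45.4 CPM, 1.82-fold (log2 fold change 0.87, SE 0.08, adjusted p = 1.00e-06 in edgeR). The small cluster from ZNF302 to ZNF792 had 0 of 5 members called by edgeR, 0 at an unadjusted p under 0.05 and 0 by DESeq2, with log2 fold changes between 0.04 and 0.16. ZNF507, a lone member, rose from 31.6 and 32.9 to 48.3 and 41.5 CPM (log2 fold change 0.48, SE 0.08).

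The 5 most abundant members by CPM changed little. ZNF358 was at 109 and 110 CPM in WT, against 120 and 131 (adjusted p = 0.015 in edgeR), a call lost with DESeq2 and without knockout replicate 2, WT replicate 1 or WT replicate 2. ZNF428 was at 60.8 and 55.7 against 67.5 and 72.8 CPM (adjusted p = 0.00606), lost without knockout replicate 2 or WT replicate 2. It overlaps the opposite-strand gene SRRM5. ZNF714 was at 63.4 and 68.0 against 74.9 and 64.9 CPM and did not pass. ZNF317 was at 59.2 and 64.1 against 53.1 and 55.8 CPM, and its call was lost in 6 of 9 other fits, among them without knockout replicate 1, knockout replicate 2 or WT replicate 2. Per kilobase of longest transcript ZNF358 and ZNF428 led all members, at 56.1 and 41.2 CPM per kb in WT, followed by ZNF581 at 31.1. ZNF587 was at 12.2 and ZNF714 at 9.64 CPM per kb. The levels spread from 0.41 to 118 mean CPM over the tested members.

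**Figure D4:**
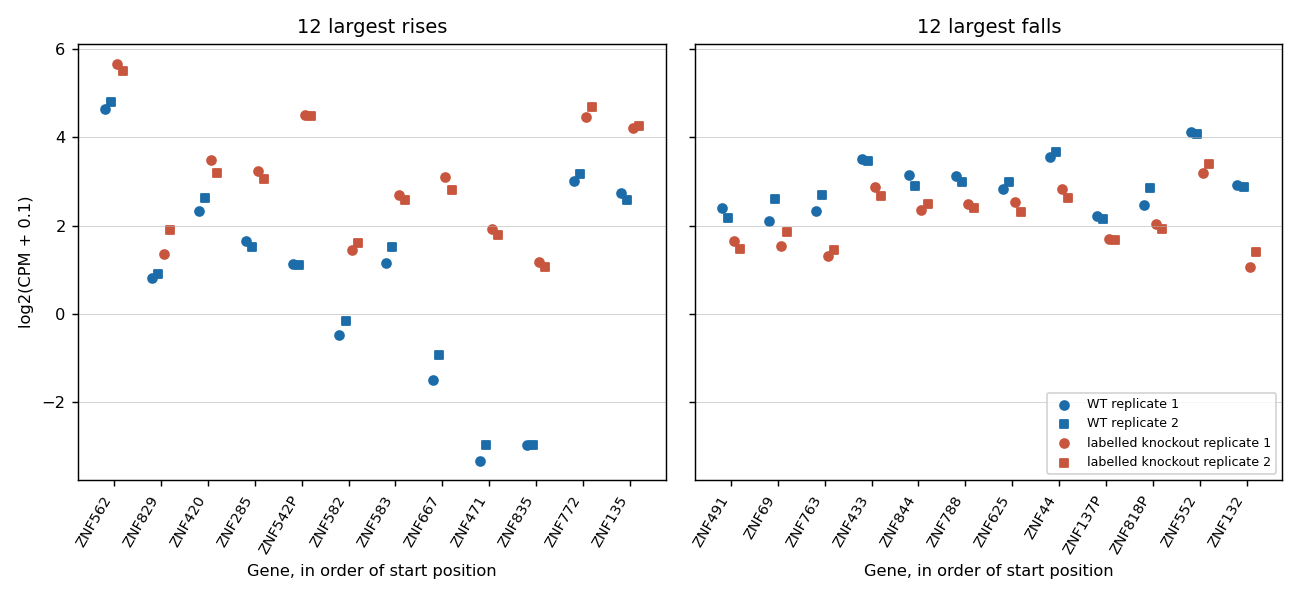
Log2 of CPM plus 0.1 in each library for the 12 largest rises (left) and the 12 largest falls (right) among members past the threshold with at least 1 CPM in the higher genotype. WT (blue) and the libraries labelled knockout (red) do not overlap in any of the 24, and ZNF471, ZNF835, ZNF667 and ZNF582 lie below 1 CPM in both WT libraries.

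Of the 12 largest rises 11 were called in all 9 other fits, the exception being ZNF829, whereas 5 of the 12 largest falls were. Those 5 were ZNF132, ZNF763, ZNF44, ZNF552 and ZNF433. The named falls were also smaller in size. Their least log2 fold change was -0.49 (ZNF625), against 0.83 (ZNF829) for the named rises.

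Genes of the machinery through which KRAB zinc finger proteins act were mostly higher, by small amounts. Of 21 cofactors, all tested, 12 rose, 1 fell and 8 did not pass, with a median log2 fold change of 0.19. Of all genes 44.2% were called, 21.9% higher and 22.3% lower. The cofactors were also more abundant, with a median of 122 CPM against 24.1 over all genes tested. Their median standard error of the log2 fold change was 0.06 against 0.10, so that smaller changes could pass. TRIM28, the corepressor that binds the KRAB domain, was at 968 and 980 CPM in WT and at 1082 and 1100 in the others (log2 fold change 0.16, SE 0.05), a call lost without WT replicate 1 or WT replicate 2. SETDB1, its histone methyltransferase, was at 125 and 121 against 127 and 132 CPM and did not pass. The heterochromatin protein genes all rose. CBX5 rose from 1317 and 1354 to 1754 and 1734 CPM (log2 fold change 0.39, SE 0.05), CBX3 from 92.3 and 88.0 to 118 and 114, and CBX1 from 226 and 212 to 264 and 264.

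The deacetylase gene HDAC2 rose from 218 and 220 to 292 and 279 CPM, while HDAC1 was at 125 and 124 against 124 and 113 and did not pass. FAM208A (TASOR), of the HUSH complex that spreads silencing marks, rose from 91.0 and 95.3 to 123 and 109 CPM. MPHOSPH8, which encodes another HUSH subunit, was the one that fell, from 53.2 and 56.9 to 45.2 and 44.9 CPM (log2 fold change -0.29, SE 0.07). MORC2, which works with HUSH, rose from 68.9 and 72.9 to 85.5 CPM in both libraries. The remodeller gene SMARCAD1 rose from 59.8 and 60.6 to 79.1 and 75.9 CPM. Of the DNA methylation genes, DNMT3A rose from 184 and 186 to 211 and 226 CPM, while DNMT1 (257 and 254.7 against 268 and 264 CPM) and DNMT3B (90.6 and 89.6 against 88.4 and 88.8) did not pass. UHRF1 was at 54.3 and 46.2 against 61.9 and 57.6 CPM, a call lost with DESeq2 and without knockout replicate 1 or WT replicate 2. ATF7IP and the NuRD gene CHD4 also passed, with log2 fold changes of 0.19 and 0.14, and each lost its call in 3 of 9 other fits. ATF7IP lost it without knockout replicate 1, knockout replicate 2 or WT replicate 1, and CHD4 without knockout replicate 2, WT replicate 1 or WT replicate 2.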

How the data were processed

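PolyA-selected RNA of 4 libraries was measured, 2 WT and 2 labelled TFAP2A knockout, and grouped by the genotype label. The authors deposited estimated counts for 25690 gene rows. TopHat, HOMER, DESeq2 and hg38 are named in the submitters' processing notes, without versions. Of 23020 genes also found in GENCODE's GRCh38 annotation, however, 4.32% began within 2000 bp of it, and contig names of 42 rows follow hg19. Positions are therefore printed as hg19. Rules for annotation, strand and multi-mapping reads were not given in what was used here. Values were multiples of 0.5 (37.0% not whole) and were rounded for the count models.

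The whole table was filtered with filterByExpr, scaled with TMM and tested with edgeR 4.0.16 in R 4.3.3 on genotype alone (glmQLFit, robust). The test was also run on counts simulated from means and dispersions of these same libraries, which is no independent check of the calls. The SE is the log2 fold change over the square root of F. The 9 other fits were RLE factors, upper-quartile factors, no low-count filter, a replicate block, DESeq2 1.42.0 and each library left out. WT libraries held 17945210 and 17838204 counts, knockout-labelled ones 19305868 and 21797851. Replicates differed by more than sampling noise (chi-square per degree of freedom 4.31 and 4.16).

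The named genes were members changed alone or silent in one genotype, the 12 largest rises and 12 largest falls with at least 1 CPM in the higher genotype and no overlap, the 5 highest levels and 21 cofactors. Any further gene was picked with its values in view. The members and lists were chosen with earlier results of these data known. RefSeq (GRCh38.p14) matched all 252 members, 242 of them protein-coding, and held promoters of 213. GENCODE transcripts were found for 251; a median of 1.14% of their 50-base windows, and over 10% in 18 members, also occur in genes elsewhere.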

Additional observations from a re-analysis of the deposited data

How the results depend on the processing

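The counts of members called depended most on the test. With DESeq2 23 members were higher and 8 lower, against 42 and 21 in edgeR. Leaving out each library in turn gave 26 to 34 members higher, 13 to 17 lower, 9 to 11 higher by 2-fold or more and 1 to 3 lower by 2-fold or more. The count of members changed alone was 1 with a gap of 0.5 Mb or 2 Mb between clusters, and 5 when a change of 2-fold was taken, an alternative chosen after seeing the data. No member had 0 counts in one genotype while expressed in the other, so 0 members were silent at a limit of 0 counts instead of 3, against 2. RLE factors, upper-quartile factors and no low-count filter gave 42 to 46 members higher and 19 to 21 lower. With the replicate number as a block 36 were higher and 18 lower; deviations of same-numbered libraries had a correlation of -0.05, so the numbers are not shown to pair the libraries. The direction of no named gene that passed was reversed. The cofactor counts were 9 to 12 higher and 1 lower in all 9 other fits. Depth limited the 18 members not tested, which had at most 47.5 counts over the 4 libraries; without the low-count filter 11 members instead of 10 were higher by 2-fold or more.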
